A study of Homo sapiens with 12 samples.

Results

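The response to interferon-γ (IFNγ) of SW-13 cells with restored BRG1 was measured by setting cells that carried a BRG1 adenovirus and received IFNγ for 6 h against untreated cells with the same virus. Its members are the 6 arrays whose titles name BRG1, 3 with IFNγ and 3 without, of 12 arrays in the series, and every gene detected in at least 1 group of the series was tested, 10333 in all. SW-13 is an established human adrenocortical carcinoma line that lacks BRG1, the ATPase of the SWI/SNF chromatin remodelling complex encoded by SMARCA4. The 4 groups of 3 arrays each are Ad-BRG1 cells with IFNγ for 6 h, untreated Ad-BRG1 cells, Ad-GFP cells with IFNγ for 6 h and untreated Ad-GFP cells. Ad-BRG1 is an adenovirus that expresses a fusion of GFP and BRG1 and Ad-GFP one that expresses GFP alone, so all groups carry adenovirus and GFP and none is free of virus. According to the study's methods the Ad-BRG1 virus was titrated to the amount of BRG1 found in HeLa, a cervical cancer line, and the replicates are biological. The study asked which IFNγ-responsive genes depend on BRG1.

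IFNγ is a cytokine of T cells and natural killer cells. Its receptor, IFNGR1 with IFNGR2, activates the kinases JAK1 and JAK2. The signal reaches GAS elements in promoters, among them that of IRF1, and IRF1 and other interferon regulatory factors then act on ISRE elements of further genes. Products of these interferon-stimulated genes (ISGs) restrict viruses, present peptides on MHC molecules, attract leukocytes and, through SOCS proteins, damp the signal.

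The motifs of that pathway are shown in the 250 bases before the transcription start of 5 genes that rose strongly with IFNγ and hold a match, 1 transcription factor and 4 effectors. The sequences are RefSeq's for GRCh38.p14, read 5′ to 3′ on the gene's strand, with GAS matches (TTCNNNGAA) and ISRE matches (GAAANNGAAA, searched on both strands) in capitals. IRF1 lies at chr5:132490774-132491023, minus strand, IFIT3 at chr10:89327747-89327996, plus strand, GBP1 at chr1:89065209-89065458, minus strand, TAP1 at chr6:32853705-32853954, minus strand and CD274 at chr9:5450292-5450541, plus strand.
IRF1: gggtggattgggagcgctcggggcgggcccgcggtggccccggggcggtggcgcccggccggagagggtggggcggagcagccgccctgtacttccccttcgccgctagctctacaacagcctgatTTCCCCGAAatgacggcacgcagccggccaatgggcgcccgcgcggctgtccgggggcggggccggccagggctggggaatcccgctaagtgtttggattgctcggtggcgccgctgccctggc
IFIT3: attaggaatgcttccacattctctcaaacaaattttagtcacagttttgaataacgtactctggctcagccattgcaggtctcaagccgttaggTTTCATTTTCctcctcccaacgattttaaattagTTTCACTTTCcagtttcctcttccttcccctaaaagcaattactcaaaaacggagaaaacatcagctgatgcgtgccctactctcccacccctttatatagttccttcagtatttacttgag
GBP1: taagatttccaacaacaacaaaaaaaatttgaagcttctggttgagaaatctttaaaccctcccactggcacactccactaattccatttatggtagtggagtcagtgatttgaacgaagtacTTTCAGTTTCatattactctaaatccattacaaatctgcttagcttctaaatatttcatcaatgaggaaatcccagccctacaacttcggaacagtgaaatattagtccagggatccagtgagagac
TAP1: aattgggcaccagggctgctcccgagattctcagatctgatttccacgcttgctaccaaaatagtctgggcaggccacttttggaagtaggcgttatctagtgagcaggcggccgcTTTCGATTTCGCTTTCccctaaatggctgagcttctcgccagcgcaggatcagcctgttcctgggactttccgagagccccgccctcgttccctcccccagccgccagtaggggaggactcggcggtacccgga
CD274: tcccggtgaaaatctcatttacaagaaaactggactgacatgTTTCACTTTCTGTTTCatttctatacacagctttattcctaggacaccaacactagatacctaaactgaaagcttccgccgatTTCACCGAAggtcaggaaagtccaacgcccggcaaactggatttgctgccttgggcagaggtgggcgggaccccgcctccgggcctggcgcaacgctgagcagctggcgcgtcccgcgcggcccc
IRF1 held 1 GAS match starting 124 bases before the start site and no ISRE match, GBP1 held 1 ISRE match at -127, and IFIT3 held ISRE matches at -156 and -122. TAP1 had overlapping ISRE matches at -134 and -128, and CD274, the ligand of PD-1, had overlapping ISRE matches at -208 and -202 with a GAS match at -125. In windows of 300 bases, 250 before to 50 after the start, an ISRE match stood in 3.65% of all 27305 promoters and 2.82% of the 8506 tested genes with a promoter in the table. It stood in 40 of the 137 promoters found for genes raised 2-fold or more (29.2%) and in 22 of the 51 found for genes raised 4-fold or more (43.1%). GAS matches stood in 7.88% of all promoters, 6.4% of those of tested genes, 15.3% of those of genes raised 2-fold and 25.5% of those of genes raised 4-fold. Other strong risers held neither motif in that window, namely IL18BP (log2 difference 6.20), UBD (5.30), PSMB9 (4.68), BATF2 (4.67), UBE2L6 (4.65) and PARP9 (4.08). The 5 genes shown are thus examples with matches, not typical risers. A match is a description of letters, not a bound site.

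Levels are normalized log2 intensity throughout, each from 1 probe per gene, so levels of different genes are not compared. Raw mean intensity was 539.9 to 571 on the IFNγ-treated Ad-BRG1 arrays and 612 to 643 on the untreated Ad-BRG1 arrays, a difference whose part in the results was not tested beyond the alternative normalizations. Each array had 15741 to 16828 probes above background, and the number of arrays limits the precision. Ad-BRG1 arrays of 1 group correlated at r 0.994 to 0.996 and IFNγ-treated with untreated ones at 0.973 to 0.985 across genes, which are not independent replicates. IRF1 checks the IFNγ labels and read 13.67, 13.85 and 13.77 in IFNγ-treated Ad-BRG1 cells, against 8.42, 8.62 and 8.52 in untreated Ad-BRG1 cells. SMARCA4 read 8.39, 8.75 and 8.72 in IFNγ-treated Ad-BRG1 cells, against 8.43, 8.49 and 8.61 in untreated Ad-BRG1 cells (limma adjusted p = 0.41). Both groups carry Ad-BRG1, so this comparison cannot check the virus label. Since the virus carries a cDNA of unknown position relative to the probe, SMARCA4 checks no label, and restored BRG1 was not shown on these arrays. The line was also set against its tissue of origin. Of 15 adrenal cortex markers with a named probe, 3 were above background on all 3 arrays of an Ad-BRG1 group (SCARB1, FDX1 and CYP11A1) and 11 on no Ad-BRG1 array, among them NR5A1, STAR and CYP17A1, which define steroidogenic cells. Of 17 leukocyte markers 2 were above background (CD79A and CD68), and 10 were on no array.

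In Ad-BRG1 cells 3379 of the 10333 genes passed the limma test at an adjusted p under 0.05, 1355 higher with IFNγ (13.1%) and 2024 lower (19.6%). A rise of 2-fold or more was seen for 189 genes (1.83%), and a fall of 2-fold or more for 8. Most of the called falls were small, 1831 of the 2024 being under 1.5-fold, as were 884 of the 1355 called rises. The IFNγ and untreated arrays did not overlap for 4433 genes (42.9%), among them 186 of the 189. Of the calls 40.1% were higher, but 52.9% with the authors' average normalization. Without untreated replicate 1 there were 853 rises and 1240 falls, and without IFNγ replicate 3 there were 1278 falls. The median log2 difference of all genes was -0.04. Without background correction 85 genes in place of 189 passed 2-fold higher and 1 in place of 8 lower, while all 189 and all 8 stayed called in the same direction.

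**Figure D1:**
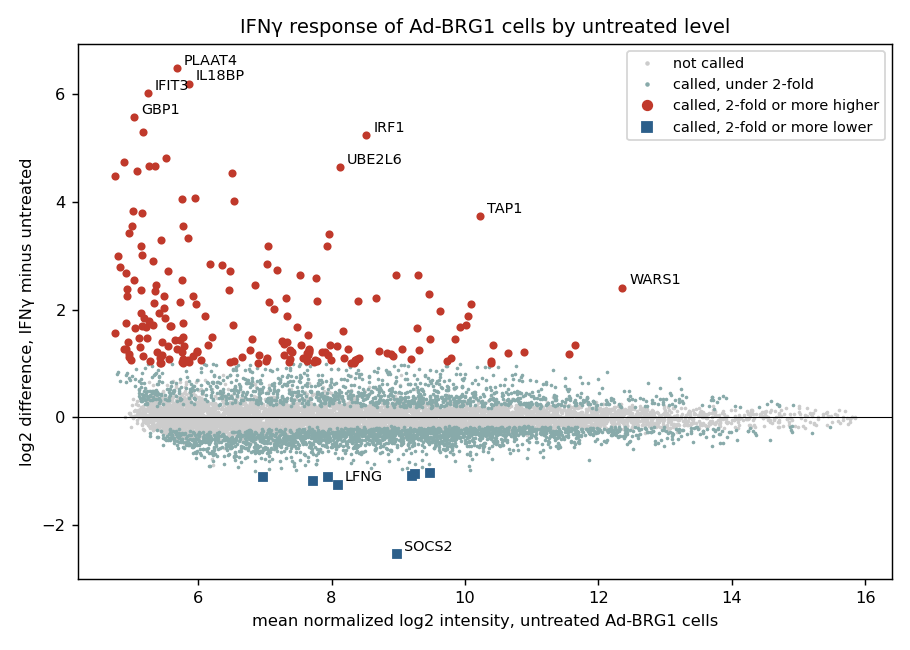
Log2 difference with IFNγ in Ad-BRG1 cells (vertical axis) against the mean normalized log2 intensity in untreated Ad-BRG1 cells (horizontal axis), 1 point per gene for 10333 genes. The 189 genes raised 2-fold or more reach a fitted log2 difference of 6.49 for PLAAT4, and the 8 lowered ones reach -2.55 for SOCS2.

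Of the 189 genes, 132 were above background on all 3 untreated Ad-BRG1 arrays, 21 on 1 or 2 of them and 36 on none. All 189 were above background on all 3 arrays with IFNγ. A probe was kept only if above background on all 3 arrays of at least 1 group. For genes dim in untreated cells, detection with IFNγ is thus partly set by that filter. For the 36, the fold is a lower bound, taken against the lowest detected level of each array, and 28 of them reached 2-fold by that bound, so that 181 of the 189 had a fold or bound of 2 or more. The median log2 difference of the 189 was 1.49 (1.45 with dim groups at the floor). By fit, 68 rose 4-fold or more, 30 rose 8-fold or more, 17 rose 16-fold or more and 6 rose 32-fold or more.

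The largest fitted rise was that of PLAAT4, though genes below background without IFNγ have only lower bounds and cannot be ranked against it. PLAAT4 is a phospholipase and acyltransferase also known as a retinoid-responsive tumour suppressor, and it read 12.16, 12.19 and 12.16 in IFNγ-treated Ad-BRG1 cells, against 5.60, 5.86 and 5.58 in untreated Ad-BRG1 cells, a rise of 89.7-fold (log2 difference 6.49, SE 0.08, adjusted p = 3.42e-14). IL18BP, the secreted decoy that neutralises IL-18, read 12.04, 12.06 and 12.07 in IFNγ-treated Ad-BRG1 cells, against 5.87, 5.76 and 5.93 in untreated Ad-BRG1 cells (73.5-fold, log2 difference 6.20, SE 0.10). In both genes the untreated arrays lay close together at a low level and the treated arrays lay closer still. A second kept probe of IL18BP rose by only 0.88 on the log2 scale. IFIT3, which works with IFIT1 against viral RNA, read 11.11, 11.33 and 11.35 in IFNγ-treated Ad-BRG1 cells, against 5.25, 5.32 and 5.16 in untreated Ad-BRG1 cells, at least 58.8-fold higher. GBP1, a large GTPase that attacks the vacuoles of intracellular pathogens, read 10.59, 10.48 and 10.75 in IFNγ-treated Ad-BRG1 cells, against 4.89, 5.16 and 5.06 in untreated Ad-BRG1 cells, at least 37.3-fold higher. UBD (FAT10), a ubiquitin-like modifier that sends proteins to the proteasome, read 10.47, 10.48 and 10.47 in IFNγ-treated Ad-BRG1 cells, against 5.19, 5.17 and 5.16 in untreated Ad-BRG1 cells, at least 34.1-fold higher. These 3 genes were above background on no untreated Ad-BRG1 array and on all treated ones, a pattern that the detection filter favours. The plot of the largest changes by array shows the gap between groups against the spread within them.

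**Figure D2:**
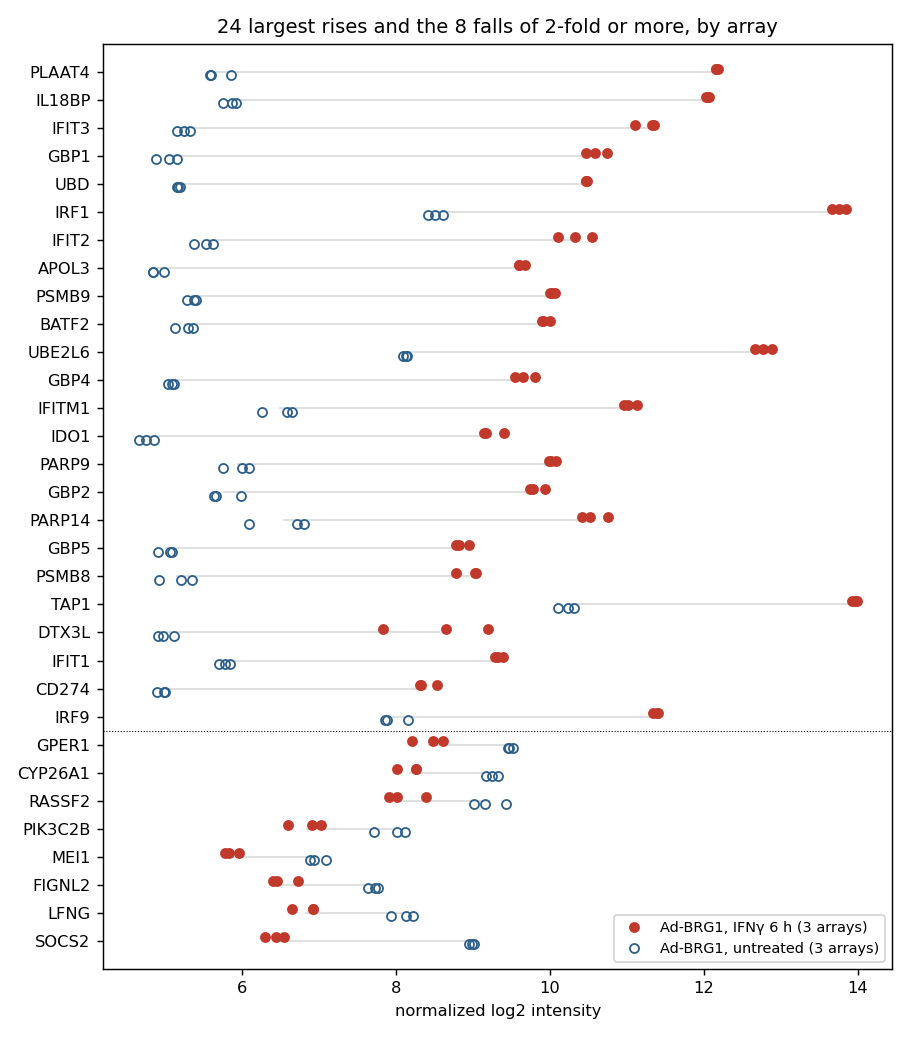
Normalized log2 intensity (horizontal axis) of the 24 largest rises with non-overlapping arrays, above the dotted line, and the 8 falls of 2-fold or more, below it, in Ad-BRG1 cells. Filled points are the 3 arrays with IFNγ and open points the 3 untreated arrays. The 24 rises are apart by their selection, and the 8 falls are apart too, against 42.9% of all genes. Of the 32 genes RASSF2 has the narrowest gap, and DTX3L has the widest spread with IFNγ (7.84, 8.66 and 9.20).

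The lists that follow are counts and medians, to be read against 13.1% of all genes rising, 19.6% falling and a median of -0.04. They cover tested members only, and a gene detected only with IFNγ passed the detection filter through its rise. The shares that rose are thus partly set by that filter. On the array were 7 guanylate-binding proteins, 24 OAS, MX and other RNA-directed effectors and 20 chemokines, of which 5, 17 and 8 were tested. In each of these lists 3 tested members were above background on no untreated Ad-BRG1 array. Among receptor and JAK-STAT genes 4 rose and 1 fell among the 10 tested, with a median log2 difference of 0.14. JAK2 rose 3.59-fold (6.81, 6.96 and 7.32 with IFNγ, against 5.24, 4.97 and 5.35 without) and STAT3, a STAT that also carries IL-6 signals, rose 2.74-fold. IFNAR1, a chain of the type I interferon receptor, rose by 0.54 on the log2 scale and STAT6 by 0.43, whereas STAT5B fell by 0.29. IFNGR1 (-0.00), IFNGR2 (-0.16) and JAK1 (-0.13) did not pass the test. Among interferon regulatory factors 4 rose and 0 fell among the 8 tested, with a median log2 difference of 0.57. Besides IRF1 (37.9-fold), these were IRF9, the DNA-binding subunit of ISGF3 (11.41, 11.35 and 11.39 with IFNγ, against 7.86, 8.16 and 7.89 without), IRF8 (7.48-fold) and IRF2, which competes with IRF1 (2-fold). IRF3 and the IRF2-binding proteins IRF2BP1, IRF2BP2 and IRF2BPL lay between -0.17 and 0.14 and were not called.

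Among feedback inhibitors 4 rose and 2 fell among the 14 tested, with a median log2 difference of 0.10, and the members moved in opposite directions. SOCS1, which blocks JAK kinases, read 8.83, 8.74 and 8.63 in IFNγ-treated Ad-BRG1 cells, against 5.16, 5.38 and 5.78 in untreated Ad-BRG1 cells (9.78-fold higher). SOCS2, best known for restraining growth hormone signalling, read 6.44, 6.54 and 6.31 in IFNγ-treated Ad-BRG1 cells, against 8.95, 9.02 and 8.99 in untreated Ad-BRG1 cells and fell 5.87-fold (log2 difference -2.55, SE 0.07, adjusted p = 5.64e-11), further than any other gene tested in these cells. SOCS3 rose by 0.74 and the ISG15 protease USP18 by 0.56 on the log2 scale, while PIAS3 fell by 0.49. The other SOCS, PTPN and PIAS members tested lay between -0.18 and 0.35, with PTPN2 (0.35) the only one of them that rose.

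All 5 guanylate-binding proteins tested rose, with a median log2 difference of 4.06. GBP4 rose at least 19.5-fold, GBP2 16.7-fold and GBP5, which promotes inflammasome assembly, at least 11.1-fold, and GBP3 rose by 0.62 on the log2 scale. All 4 IFIT genes tested rose, with a median of 4.19. IFIT2 read 10.11, 10.33 and 10.56 in IFNγ-treated Ad-BRG1 cells, against 5.62, 5.54 and 5.38 in untreated Ad-BRG1 cells (28.2-fold), IFIT1, which binds viral RNA ends, rose 11.8-fold, and IFIT5 rose 4.33-fold. A second kept probe of IFIT1 rose by only 0.39 on the log2 scale (0.06 at the floor). All 3 IFITM genes, whose products block virus entry at membranes, rose as well. IFITM1 read 10.96, 11.02 and 11.13 in IFNγ-treated Ad-BRG1 cells, against 6.65, 6.59 and 6.27 in untreated Ad-BRG1 cells (23.2-fold), and IFITM2 and IFITM3 rose 3.29-fold and 3.19-fold.

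The list of OAS, MX and other RNA-directed effectors rose in full, 17 of 17 tested, 13 of them 2-fold or more by fit, with a median of 1.33 (1.27 with dim groups at the floor). BST2 (tetherin), which holds budding virions at the cell surface, read 9.77, 9.97 and 9.95 in IFNγ-treated Ad-BRG1 cells, against 7.01, 7.01 and 7.09 in untreated Ad-BRG1 cells (7.25-fold). SHFL, an inhibitor of frameshifting, rose 6.6-fold, the helicase HELZ2 4.32-fold, the exonuclease ISG20 3.19-fold and XRN1 2.73-fold. The oligoadenylate synthetases OAS1, OAS2 and OAS3 rose 2.81-fold, at least 1.92-fold and 2.7-fold, and OASL at least 1.6-fold. ZC3HAV1, ZNFX1, SLFN11 and SAMD9 rose 2.52-fold, 2.41-fold, 2.06-fold and at least 1.68-fold. Increases of MX1 (0.44) and EIF2AK2, which encodes PKR (0.52), were smaller on the log2 scale.

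Of 18 IFI and related interferon genes 13 rose and 1 fell, with a median of 1.25 (1.12 with dim groups at the floor). IFI27 read 11.07, 11.04 and 11.23 in IFNγ-treated Ad-BRG1 cells, against 7.93, 7.999 and 7.85 in untreated Ad-BRG1 cells (9.1-fold). IFI35 rose 6.21-fold and its partner NMI 6.21-fold, the receptor-transporting protein RTP4 at least 4.6-fold, the scramblase PLSCR1 5.85-fold and TMEM140 5.14-fold. NUB1, LGALS3BP, IFI44 and FAM111A rose 3.15-fold, 3.04-fold, at least 2.05-fold and 2.3-fold. LY6E fell by 0.31 on the log2 scale. Among nucleic acid sensors and adaptors 10 rose and 2 fell among the 14 tested, with a median log2 difference of 0.60. The RNA helicases IFIH1 (MDA5), RIGI and DHX58 rose 3.83-fold, 3.25-fold and at least 3.18-fold and TRAFD1 2.14-fold, while the adaptor MAVS fell by 0.77 on the log2 scale and the kinase IKBKE by 0.39.

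Of the immunoproteasome and PA28 genes 5 of 6 tested rose and 0 fell, and of peptide transport and loading genes 6 of 9 rose and 0 fell. PSMB9, an inducible catalytic subunit of the immunoproteasome, read 10.01, 10.07 and 10.03 in IFNγ-treated Ad-BRG1 cells, against 5.29, 5.38 and 5.40 in untreated Ad-BRG1 cells (25.6-fold, log2 difference 4.68, SE 0.08), above background on 1 of the 3 untreated arrays. A second kept probe of PSMB9 rose by only 0.76 on the log2 scale (0.41 at the floor). The partner genes PSMB8 and PSMB10 rose at least 11.9-fold and 2.27-fold, and the PA28 activator subunits PSME2 and PSME1 rose 2.05-fold and 1.56-fold. In the constitutive proteasome 1 rose and 1 fell of 15, and 13 were not called, within -0.17 to 0.22. The peptide transporter TAP1 read 13.93, 13.99 and 13.97 in IFNγ-treated Ad-BRG1 cells, against 10.11, 10.32 and 10.24 in untreated Ad-BRG1 cells (13.3-fold), TAP2 rose 4.05-fold, and the aminopeptidase LAP3 3.94-fold. NLRC5, the class I transactivator, rose at least 1.5-fold, and the loading factor TAPBP by 0.56 and the trimming peptidase ERAP1 by 0.46 on the log2 scale. Among MHC class I chains 6 rose and 2 fell among the 11 tested, with a median log2 difference of 0.47. HLA-E read 11.76, 11.79 and 11.74 in IFNγ-treated Ad-BRG1 cells, against 9.55, 9.52 and 9.33 in untreated Ad-BRG1 cells (4.91-fold), HLA-B rose 3.25-fold and B2M, the shared light chain, 1.65-fold, while MICA, a ligand of natural killer cells, fell by 0.33 on the log2 scale. Class I genes are near-identical in sequence, so probes may read several.

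Among the 9 MHC class II genes tested, 4 rose and 1 fell, with a median of 0.22 (0.21 with dim groups at the floor). IFI30, a lysosomal thiol reductase, rose 7.07-fold and HLA-DOB 3.27-fold. CIITA, the class II master regulator, read 5.64, 5.50 and 5.62 in IFNγ-treated Ad-BRG1 cells, against 5.16, 5.24 and 5.06 in untreated Ad-BRG1 cells, at least 1.15-fold higher, and HLA-DRA was at least 1.19-fold higher. Both were above background on no untreated array, and RFX5, which recruits CIITA, fell by 0.29 on the log2 scale.

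In ISG15 and FAT10 conjugation 7 rose and 0 fell among the 9 tested, with a median log2 difference of 0.82. UBE2L6, the conjugating enzyme for ISG15, read 12.66, 12.77 and 12.88 in IFNγ-treated Ad-BRG1 cells, against 8.09, 8.15 and 8.13 in untreated Ad-BRG1 cells (25.1-fold), and ISG15 itself rose 2.54-fold. UBA6, which activates FAT10, rose 2.38-fold. Among interferon-linked PARP genes 9 rose and 1 fell among the 12 tested, with a median log2 difference of 0.63. PARP9 and its ubiquitin ligase partner DTX3L rose 16.9-fold and at least 9.06-fold, PARP14 16.2-fold and PARP12 3.67-fold, while the DNA repair enzyme PARP2 fell by 0.44 on the log2 scale. Among TRIM ubiquitin ligases 6 rose and 3 fell among the 14 tested, with a median log2 difference of 0.16, with TRIM22, TRIM21 and TRIM56 at least 4.63-fold, 5.51-fold and 4.74-fold higher, TRIM25, which modifies RIG-I, 2.25-fold and TRIM38 2.07-fold higher, and TRIM27 lower by a log2 difference of -0.44.

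Of the 3 APOL family genes tested, APOL3 rose at least 19-fold (9.69, 9.60 and 9.61 with IFNγ, against 4.85, 4.85 and 4.99 without) and APOL2 5.49-fold, and APOLD1 fell 1.95-fold. The APOL2 value rests on 1 of 3 probes kept for it. The second rose by 0.69 and the third differed by -0.01 on the log2 scale. The cytidine deaminases APOBEC3G and APOBEC3F rose 2.77-fold and 2.27-fold, and APOBEC3B (-0.02) was not called. Of nuclear body genes SP110 rose 6.23-fold and PML 2.13-fold, while DAXX fell by 0.52 on the log2 scale. A second probe of PML differed by 0.19 and was not called.

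Genes of secreted signals followed. Among chemokines 5 rose and 1 fell among the 8 tested, with a median log2 difference of 1.02 (0.94 with dim groups at the floor). CXCL10, which attracts activated T cells, read 8.43, 8.27 and 8.27 in IFNγ-treated Ad-BRG1 cells, against 5.08, 5.24 and 5.12 in untreated Ad-BRG1 cells (at least 7.67-fold), and the monocyte attractants CCL8 and CCL2 rose at least 6.93-fold and 6.64-fold. CX3CL1 (fractalkine) rose at least 2.87-fold, whereas CCL26 fell by 0.30 on the log2 scale. Of 10 cytokines and decoys 7 rose and 0 fell, with a median of 0.55 (0.40 with dim groups at the floor). Besides IL18BP these included the death ligand TNFSF10 (TRAIL, at least 2.46-fold), IL12A (at least 2.52-fold) and IL32 (2.53-fold), while IL18, the target of IL18BP, rose by 0.34 on the log2 scale. Among cytokine receptors 10 rose and 2 fell among the 20 tested, with a median log2 difference of 0.26 (0.19 with dim groups at the floor). TNFRSF14 (HVEM) rose at least 4.34-fold, IL15RA, which presents IL-15 to lymphocytes, at least 3.48-fold and IL6ST (gp130) 2.06-fold, while IL27RA fell by 0.80 and IL6R by 0.56 on the log2 scale.

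Surface molecules that meet T cells rose in part, 7 of 12 tested rising and 1 falling, with a median of 0.55 (0.36 with dim groups at the floor). CD274 (PD-L1) averaged 8.39 ± 0.12 in IFNγ-treated Ad-BRG1 cells and 4.96 ± 0.06 in untreated Ad-BRG1 cells (SD, n = 3 each; at least 8.04-fold higher), and PDCD1LG2 (PD-L2) was at least 1.16-fold higher. The butyrophilin BTN3A1 rose 2.83-fold, while VSIR (VISTA) fell by 0.49 on the log2 scale. Among complement genes and protease inhibitors 5 rose and 0 fell among the 10 tested, with a median log2 difference of 0.50. A2M, a broad protease trap, read 7.89, 7.73 and 7.76 in IFNγ-treated Ad-BRG1 cells, against 4.88, 4.75 and 4.76 in untreated Ad-BRG1 cells (at least 5.31-fold), and C1S, SERPING1 and CFB rose 2.41-fold, 2.24-fold and at least 1.74-fold. A second probe of SERPING1 differed by -0.20 and was not called (adjusted p = 0.0934).

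Among cell death genes 10 rose and 2 fell among the 20 tested, with a median log2 difference of 0.23. MLKL, the pore former of necroptosis, read 9.11, 9.20 and 9.25 in IFNγ-treated Ad-BRG1 cells, against 6.00, 6.02 and 5.55 in untreated Ad-BRG1 cells (10.05-fold). A second kept probe of MLKL rose by only 0.80 on the log2 scale (0.37 at the floor). PMAIP1 (NOXA) rose 7.23-fold, BAK1 2.53-fold and CASP1, the inflammasome caspase, 2.01-fold, whereas CASP9 fell by 0.31 and BCL2L1 by 0.35 on the log2 scale. XAF1 was at least 4.74-fold higher by its brightest probe, which was above background on no untreated array, while its second probe, above background on 2 untreated arrays, differed by 0.44 and was not called (adjusted p = 0.0817). XAF1 was not called without IFNγ replicate 2 (0.46) or without IFNγ replicate 3 (0.22). RIPK3, the kinase upstream of MLKL, differed by 0.05 and was not called. Among metabolic effectors 10 rose and 1 fell among the 16 tested, with a median log2 difference of 0.69 (0.63 with dim groups at the floor). IDO1, which degrades tryptophan, read 9.18, 9.14 and 9.41 in IFNγ-treated Ad-BRG1 cells, against 4.76, 4.86 and 4.67 in untreated Ad-BRG1 cells (at least 14.5-fold), and WARS1, the tryptophanyl-tRNA synthetase, read 14.88, 14.80 and 14.61 in IFNγ-treated Ad-BRG1 cells, against 12.33, 12.38 and 12.37 in untreated Ad-BRG1 cells (5.29-fold). GCH1, which makes tetrahydrobiopterin, rose 6.56-fold, NAMPT 2.09-fold and SOD2 1.65-fold, while GALM fell by 0.53 on the log2 scale. Among other induced transcription factors 9 rose and 1 fell among the 11 tested, with a median log2 difference of 0.75, with BATF2 at least 23.5-fold, the repressor BCL6 4.48-fold, BATF3 4.42-fold, NFIL3 2.39-fold and CEBPD 2.32-fold higher and BCL3 lower by a log2 difference of -0.54.

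**Figure D3:**
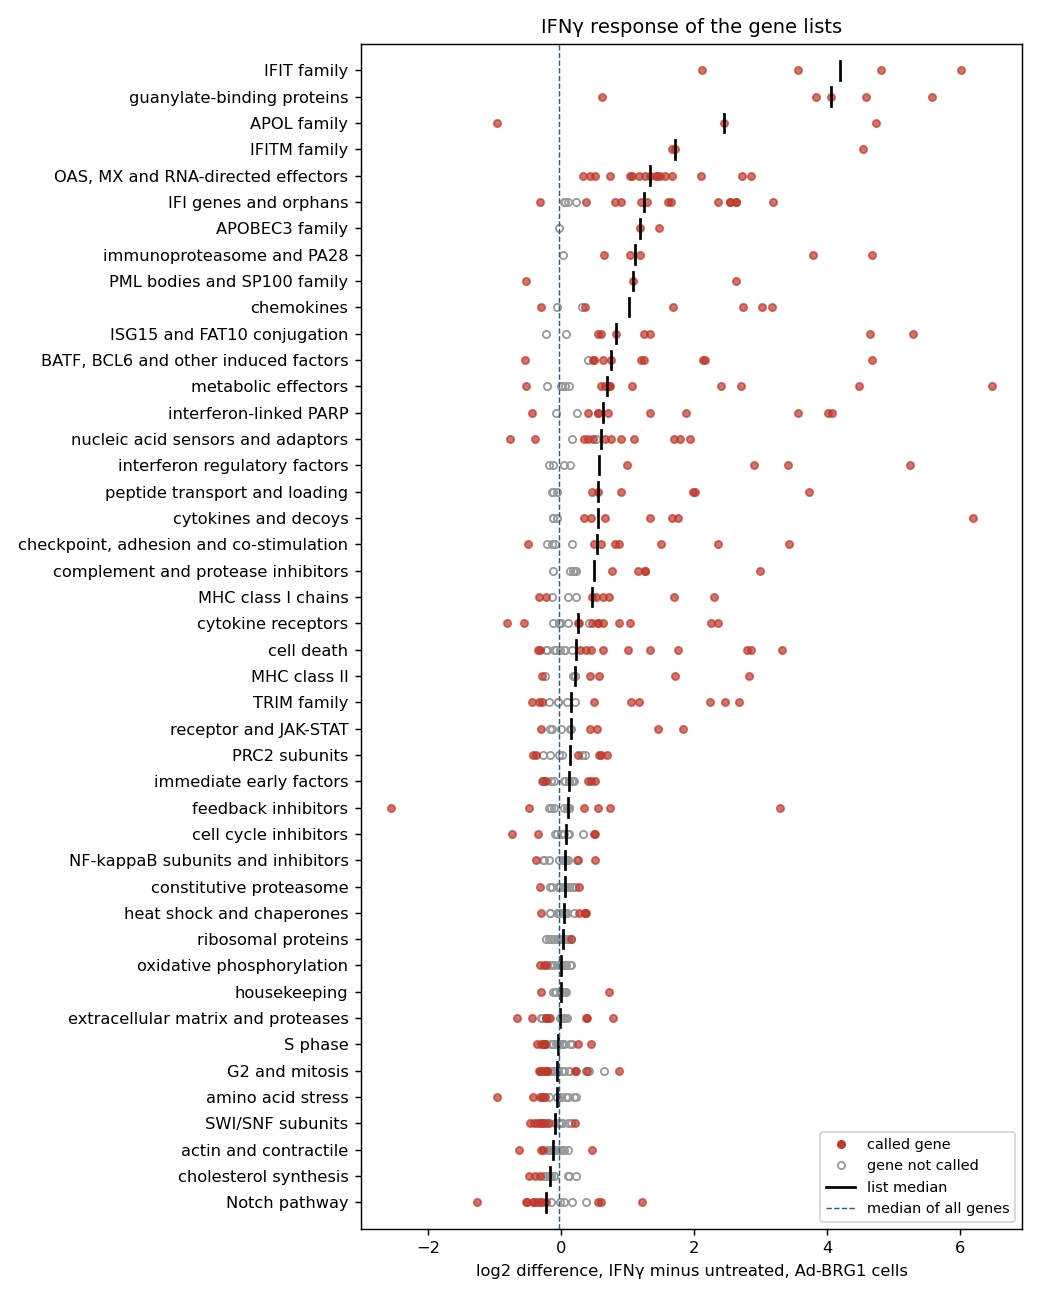
Log2 difference with IFNγ in Ad-BRG1 cells (horizontal axis) for each tested member of the gene lists with 3 or more tested members, markers left out, ordered by median. Filled points are called genes, open points are not called, black bars are list medians and the dashed line is the median of all genes (-0.04); the IFIT and guanylate-binding lists have medians of 4.19 and 4.06, and the Notch list the lowest at -0.22.

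Outside these lists stood 81 of the 189 genes. SLC15A3, a lysosomal peptide and histidine transporter, read 10.20, 10.21 and 10.27 in IFNγ-treated Ad-BRG1 cells, against 6.95, 6.95 and 7.23 in untreated Ad-BRG1 cells (9.09-fold). PLEKHF1, a lysosomal phosphoinositide-binding protein, rose 6-fold, the gene listed as RNF4BP 4.65-fold, ANXA2R 4.47-fold and the mitochondrial iron importer SLC25A28 3.68-fold. The mitochondrial glutamate carrier SLC25A22 and C19orf12, also a mitochondrial protein, rose 2.37-fold and 2.29-fold. KCTD14, RHPN2 and the deubiquitinase USP42 rose 2.73-fold, 2.01-fold and 2.05-fold, and LY96 (MD-2), the partner of TLR4, 2.15-fold. The arrays of these 10 genes other than SLC15A3 were apart between groups too.

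The 8 falls of 2-fold or more were led by SOCS2 and LFNG. LFNG, a glycosyltransferase that modifies Notch receptors, read 6.93, 6.93 and 6.66 in IFNγ-treated Ad-BRG1 cells, against 7.93, 8.13 and 8.22 in untreated Ad-BRG1 cells (2.39-fold lower, adjusted p = 4.18e-06). FIGNL2 fell 2.27-fold, the meiotic gene MEI1 2.17-fold, the lipid kinase PIK3C2B 2.15-fold, the Ras effector RASSF2 2.14-fold, CYP26A1, which degrades retinoic acid, 2.09-fold, and GPER1, a membrane oestrogen receptor, 2.06-fold. All 8 stayed called lower under every alternative, though only SOCS2 passed 2-fold without background correction. The next falls, each under 2-fold, were those of RIPPLY3, KANK1, RHOF, APOLD1, DDIT4, FGFRL1, CLN8, FAM210B, MAG, FZD8, TNFRSF10D and RASL11B, with log2 differences from -0.99 to -0.91. DDIT4 inhibits mTORC1, FZD8 is a Wnt receptor and TNFRSF10D a decoy receptor for TRAIL, the ligand whose gene rose.

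In the Notch pathway more genes fell than rose. Of 17 tested, 9 fell and 3 rose, against 19.6% and 13.1% of all genes, with a median of -0.22. The targets HES1, HEY1 and HEYL fell by 0.52, 0.51 and 0.43 on the log2 scale, HES6 by 0.28 and the fringe RFNG by 0.41. The ligand JAG1 rose 2.34-fold (7.29, 7.17 and 7.17 with IFNγ, against 5.92, 6.09 and 5.95 without). NOTCH1 and DLL1 rose by 0.61 and 0.56 on the log2 scale. Among 21 subunits of SWI/SNF tested, 1 rose and 8 fell, with a median of -0.10, SMARCC2 falling by 0.47, SMARCB1 by 0.35 and SMARCC1 by 0.29. PRC2 subunits had 4 rises and 2 falls among 12, with EZH2 at 0.26, SUZ12 at 0.58 and MTF2 at 0.69. No gene of the SWI/SNF or PRC2 lists changed 2-fold.

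Lists of other cell functions had median log2 differences of -0.16 to 0.12, and their counts stand against 13.1% rising and 19.6% falling among all genes. NF-kappaB subunits and inhibitors had 2 rises and 1 fall among 13, NFKBIZ being highest at 0.51 and NFKBIA not called (-0.03). Immediate early factors had 3 rises (ATF3, EGR1 and JUN, at most 0.51) and 2 falls (JUND and KLF2) among 17. S phase genes had 2 rises and 6 falls among 23 and G2 and mitosis genes 4 and 7 among 26, with CDT1 highest of the first at 0.45, TYMS lowest at -0.36, CENPF highest of the second at 0.88 and CDC25B lowest at -0.32. Of cell cycle inhibitors CDKN1A (p21) rose by 0.51 and GADD45B by 0.50, while CDKN1C (p57) fell by 0.74 and CDKN2B by 0.35 on the log2 scale. Amino acid stress genes had 0 rises and 5 falls among 16 and cholesterol synthesis genes 0 and 3 among 13, led by DDIT4 (-0.96) and SREBF1 (-0.48). Heat shock genes had 4 rises and 1 fall among 16 (DNAJA1 0.38, CRYAB -0.29), actin and contractile genes 1 and 3 among 18 (CALD1 0.46, CNN1 -0.63) and matrix and protease genes 3 and 5 among 17 (THBS1 0.78, PLAT -0.65). Ribosomal protein genes had 1 rise and 0 falls among 17 (RPL5 0.16), oxidative phosphorylation genes 0 and 3 among 20 (UQCRC1 -0.31) and housekeeping genes 1 and 1 among 11 (B2M 0.72, TFRC -0.30).

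The interferon genes were set beside markers of other cell types. The summed level of the 2 tested leukocyte markers was 10.7 to 10.96 on arrays with IFNγ and 10.9 to 11.1 without, and that of 7 fibroblast markers 11.9 to 12.2 with and 12.2 to 12.3 without (log2). That of 3 endothelial and epithelial markers was 8.71 to 8.91 with and 9.07 to 9.18 without, and that of 3 adrenal markers 10.5 to 10.8 with and 10.9 to 11.2 without. None of the 4 sums was higher with IFNγ. The fibroblast, endothelial and epithelial, and adrenal sums were lower on every treated array than on any untreated one, and the leukocyte sums overlapped. CYP11A1 rose by 0.32, and SCARB1, CD79A, THY1, S100A4 and TEK fell by 0.46, 0.39, 0.43, 0.45 and 0.65 on the log2 scale, the only called genes of the 4 marker lists. The leukocyte markers PTPRC, CD3D, CD14 and LYZ were each above background on at most 1 of the 6 Ad-BRG1 arrays.

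The errors of the 189 genes were not alike. The SE of the log2 difference had a median of 0.10, and 25 of the 189 exceeded 0.2, a limit set after the values were seen. Of these 25, 21 were in no list, among them HMMR and KIF18A, which act at the mitotic spindle, the autophagy factor RB1CC1, the chromatin proteins CHD1, PHF3 and PHIP, and EIF5B and RFC1. DTX3L, SAMD9, TNFSF10 and IL6ST are the listed ones. HMMR read 9.63, 10.27 and 11.07 in IFNγ-treated Ad-BRG1 cells, against 9.02, 8.44 and 9.72 in untreated Ad-BRG1 cells (log2 difference 1.26, SE 0.35, adjusted p = 0.0166). RB1CC1 read 7.70, 8.19 and 9.30 in IFNγ-treated Ad-BRG1 cells, against 7.60, 6.80 and 7.71 in untreated Ad-BRG1 cells, and KIF18A 5.95, 6.77 and 7.83 in IFNγ-treated Ad-BRG1 cells, against 5.63, 5.18 and 5.56 in untreated Ad-BRG1 cells. In HMMR and RB1CC1 the lowest treated array lay below the highest untreated one, and MANEA was the only other one of the 189 that overlapped.

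Across the 25 genes the same arrays stood high or low. IFNγ replicate 3 was the highest treated array in 24 and replicate 1 the lowest in 24, and untreated replicate 3 was the highest untreated array in 24 and replicate 2 the lowest in 24. Their median level was 7.84, 8.19 and 9.06 on IFNγ replicates 1, 2 and 3, against 7.07, 6.50 and 7.51 on untreated replicates 1, 2 and 3. The other 164 genes had medians of 8.96, 8.93 and 8.96 with IFNγ, against 6.19, 6.21 and 6.12 without. Of the 25, 1 (DTX3L) rose in Ad-GFP cells. Without untreated replicate 2, 19 of the 25 stayed called, and without IFNγ replicate 3, 20 did. The part of array differences in these 25 rises was not tested further.

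**Figure D4:**
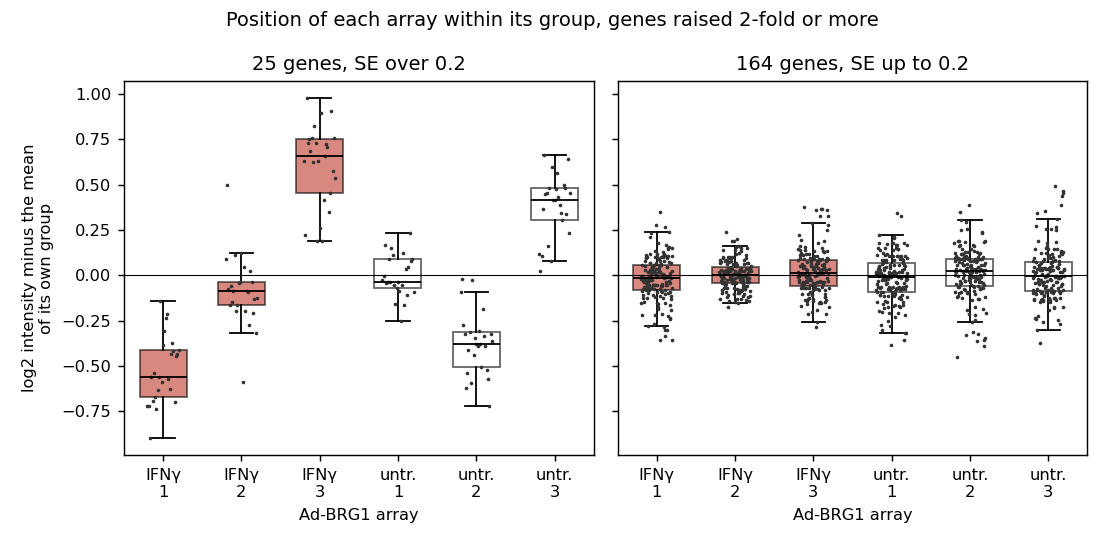
Normalized log2 intensity of each gene on each Ad-BRG1 array minus the mean of that gene's own group (vertical axis), for the 25 genes with an SE over 0.2 (left) and the 164 others (right) among those raised 2-fold or more; filled boxes are arrays with IFNγ, open boxes untreated arrays, boxes the quartiles, whiskers the furthest points within 1.5 interquartile ranges and dots genes. On the left IFNγ replicate 3 and untreated replicate 3 sit high in 24 genes each, and on the right the 6 arrays sit near 0.

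The same IFNγ treatment in Ad-GFP cells, which lack BRG1, served as the comparison, and it shares no array with the Ad-BRG1 one. There 320 genes rose (3.1%) and 101 fell (0.977%). Of the 189 genes, 93 rose in Ad-GFP cells, 53 of them 2-fold or more, and 96 were not called, and their median log2 difference was 1.49 in Ad-BRG1 cells and 0.33 in Ad-GFP cells. The difference of the responses, tested as an interaction, was called larger in Ad-BRG1 cells for 135 of the 189, smaller for 7 and not called for 47. Over all genes it was called larger for 4.32% and smaller for 3.83%, 446 and 396 genes, counts that ranged from 214 to 834 and from 137 to 772 with 1 array left out (lowest without Ad-GFP untreated replicate 3, highest without Ad-BRG1 untreated replicate 3 for larger and IFNγ replicate 1 for smaller responses). With single arrays left out the 135 ranged from 115 to 148 and the 7 from 4 to 7, and the 7 became 4 without Ad-GFP IFNγ replicate 2 or without Ad-BRG1 IFNγ replicate 2. Since the 189 were picked by their rise in Ad-BRG1 cells, the share of larger responses among them is a description.

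The 15 largest fitted differences of response are given with their limits. IFIT3 read 5.16, 5.19 and 5.08 in IFNγ-treated Ad-GFP cells, against 4.76, 4.84 and 4.87 in untreated Ad-GFP cells, above background on no array of either although the limma test called a rise (0.32, adjusted p = 0.0372). With its 3 groups below background raised to the floor, the difference of responses was 5.84 (adjusted p of the fit = 9.13e-12). Of the other 14, IL18BP (5.31, 95% interval 4.99 to 5.62) and IFITM1 (4.33, 3.94 to 4.72) were above background on every array of the 4 groups. Values at the floor were 5.28 for PLAAT4, 5.18 for GBP1, 5.06 for UBD, 4.25 for GBP4, 4.21 for APOL3, 4.02 for GBP2, 3.82 for IDO1, 3.69 for IFIT2, 3.43 for GBP5, 3.11 for IFI27, 2.90 for CXCL10 and 2.37 for A2M. Each of these 12 was below background on every array of at least 1 group, so their order is not established. The chemokine genes CXCL10, CCL8 and CCL2 were not called in Ad-GFP cells (0.08, 0.16 and -0.07). In contrast, responses of IRF1 (0.03, 95% interval -0.19 to 0.26), PSMB9 (-0.03, -0.27 to 0.22), IRF9 (0.10, -0.15 to 0.35) and SHFL (0.15, -0.27 to 0.57) were not called different, with intervals that exclude a difference of 2-fold.

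**Figure D5:**
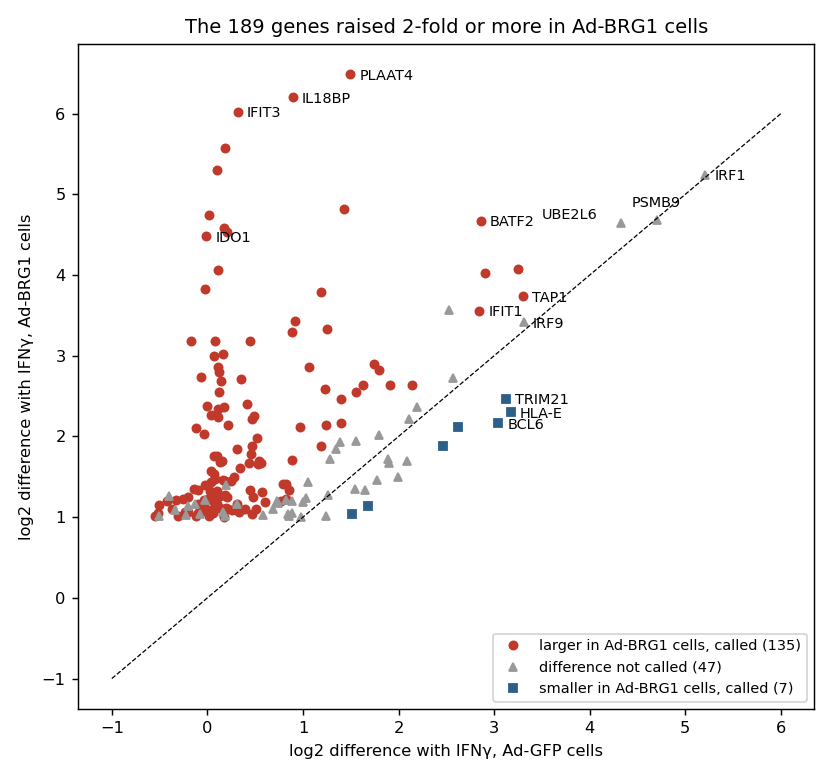
Log2 difference with IFNγ in Ad-BRG1 cells (vertical axis) against that in Ad-GFP cells (horizontal axis) for the 189 genes raised 2-fold or more in Ad-BRG1 cells; the dashed line marks equal responses and marker shapes the test of the difference. IRF1 and the brightest probe of PSMB9 lie on the line, 135 genes lie above it with a called difference, and 7 lie below it with one.

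The response was smaller with BRG1 for 7 of the 189 genes, all of which rose in both cells. BCL6 read 9.97, 10.04 and 9.82 in IFNγ-treated Ad-BRG1 cells, against 7.90, 7.70 and 7.74 in untreated Ad-BRG1 cells, and 9.82, 9.91 and 9.85 in IFNγ-treated Ad-GFP cells, against 6.74, 6.999 and 6.71 in untreated Ad-GFP cells. The difference of responses was -0.88 (95% interval -1.16 to -0.60). The treated levels of BCL6 were alike under both viruses, and the untreated level was higher with Ad-BRG1. HLA-E (-0.88), TRIM21 (-0.66), PARP12 (-0.59), OGFR (-0.55), HELZ2 (-0.51) and PSME2 (-0.47) are the others. CASP4, an inflammatory caspase, was not called with IFNγ in Ad-BRG1 cells (0.17), while it rose by 1.11 in Ad-GFP cells, and CHRNB1, a muscle acetylcholine receptor subunit, fell by 0.55 in Ad-BRG1 cells and rose by 1.25 in Ad-GFP cells, the largest negative difference (-1.80, adjusted p = 6.97e-06). The log2 difference of SOCS2 was -2.55 in Ad-BRG1 cells and -2.001 in Ad-GFP cells, called lower in both.

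Several of the 189 genes lie next to each other. In RefSeq's order of protein-coding genes, with at most 2 others between neighbours, 46 of the 187 genes placed there fell into 17 groups, 8 of them of 3 or more genes. No such count is given for the other tested genes, so these groups are a description. The largest held 5 neighbours on chromosome 6, HLA-DOB, TAP2, PSMB8, TAP1 and PSMB9. GBP1, GBP2, GBP4 and GBP5 stand together on chromosome 1, IFIT2, IFIT3, IFIT1 and IFIT5 on chromosome 10, IFITM2, IFITM1 and IFITM3 on chromosome 11, OAS1, OAS3 and OAS2 on chromosome 12, PSME2, IRF9 and REC8 on chromosome 14, and PARP9, DTX3L and PARP14 on chromosome 3. SNX16, LRRCC1 and CA13 on chromosome 8 have 3 other genes between them. Pairs included CCL2 with CCL8, APOL3 with APOL2 and APOBEC3F with APOBEC3G. Probes of close relatives may read each other's transcripts.

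Other probes of the same genes gave a check on the values. Of the 189 genes, 50 had more than 1 kept probe, and of their 66 other probes 56 were called higher, 34 of them 2-fold or more, 10 were not called and 0 were called lower. The 10 belong to APOL2, MANEA, OSBPL8, PML, RFC1, RNF217, SERPING1 and XAF1, with log2 differences from -0.20 to 0.52. Called probes could also differ in size. IFIT1 had 0.39 against 3.56 by the probe used, PSMB9 0.76 against 4.68, MLKL 0.80 against 3.33 and IL15RA 0.43 against 2.25. In the other direction a CEACAM1 probe had 3.75 against 2.14.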

How the data were processed

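RNA was hybridised to Illumina Human-WG6 BeadChips, 1 colour, 1 array per sample. The authors deposited raw probe intensity read with BeadStudio (version not given in the sources used here), without background subtraction, and beside it a detection p-value per probe and array. Their second deposited table holds average-normalized intensity, used as an alternative. Of 48803 probes, 27578 had 1 symbol in the array annotation, 13 several and 21212 none.

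Intensities were background-corrected, quantile-normalized and log2-transformed with neqc of limma 3.58.1 in R 4.3.3 (offset 16), which took its negative controls from the detection p-values. Probes with a detection p under 0.05 on all 3 arrays of a group were kept (16233, 13374 with 1 symbol), and each gene was read from its brightest kept probe, averaged across all arrays (10333 genes, 2482 with more than 1 probe). All 12 arrays entered a single lmFit and eBayes model of the 4 groups (8 residual and 4.24 prior degrees of freedom). Contrasts were IFNγ-treated minus untreated for each virus, and the Ad-BRG1 response minus the Ad-GFP response. Tests are two-sided, adjusted p is Benjamini-Hochberg over 10333 genes, and a gene was called under 0.05. A group with 0 of 3 arrays detected was raised on each array to the lowest normalized value of detected probes (5.35 to 5.44), and the fold is given as at least. P-values rest on the spread between samples within groups, pooled over the 4 groups of 3 arrays and moderated across genes.

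Genes were named by these rules: the 40 largest called rises and 20 largest falls with non-overlapping arrays, every fall of 2-fold, list members called 2-fold or called furthest in each direction, the 15 largest differences of response in each direction, and the 10 genes of no list with the highest treated level among 2-fold rises. Others named were chosen after their values were seen. The comparison, the lists and the rules were chosen with earlier results of these data known. Promoters came from RefSeq. Figures used Python 3.11.15 and matplotlib 3.10.9. The fitting step was tested on simulated data. No BeadChip was named in the sources used here, so a slide block was not run.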

Additional observations from a re-analysis of the deposited data

Results flagged for a closer look

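The IFNγ response differed between the viruses, by the interaction test of limma, with 446 genes larger and 396 smaller in Ad-BRG1 than in Ad-GFP cells at an adjusted p under 0.05. With Ad-BRG1 arrays left out in turn, the larger and smaller counts were 768 and 772 without IFNγ replicate 1, 265 and 188 without IFNγ replicate 2, 278 and 182 without IFNγ replicate 3, 252 and 188 without untreated replicate 1, 262 and 184 without untreated replicate 2, and 834 and 760 without untreated replicate 3. With Ad-GFP arrays left out they were 238 and 151 without IFNγ replicate 2, 272 and 198 without IFNγ replicate 3, 297 and 249 without untreated replicate 2, and 214 and 137 without untreated replicate 3.

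Among the 15 genes with the largest positive difference of responses, fitted on the log2 scale, IFIT3 had 5.70, GBP1 5.39, IL18BP 5.31, UBD 5.21, PLAAT4 4.99, APOL3 4.72, IDO1 4.49, GBP4 4.41, IFITM1 4.33, GBP2 3.95, GBP5 3.85, IFIT2 3.39, IFI27 3.35, CXCL10 3.10 and A2M 2.92. With groups below background raised to the floor, 13 of the 15 moved, to 5.84 for IFIT3, 5.18 for GBP1, 5.06 for UBD, 5.28 for PLAAT4, 4.21 for APOL3, 3.82 for IDO1, 4.25 for GBP4, 4.02 for GBP2, 3.43 for GBP5, 3.69 for IFIT2, 3.11 for IFI27, 2.90 for CXCL10 and 2.37 for A2M, so the order of the 15 is not established.

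Among the 15 most negative differences, CHRNB1 had -1.80, LFNG -1.26, MEI1 -1.19, MAG -1.13, RBM43 -1.12, SIGIRR -1.07, HSPB3 -1.05, LSM6 -1.04, CYP51A1 -1.03, APOLD1 -1.01, RIPPLY3 -1.01, RASL11B -1.01, CASP4 -0.94, FZD8 -0.94 and ARRDC2 -0.90. At the floor MAG had -0.82 and HSPB3 -0.90. SIGIRR, a negative regulator of IL-1 receptor signalling, fell by 0.62 in Ad-BRG1 cells and rose by 0.46 in Ad-GFP cells. RBM43 and LSM6 were not called in Ad-BRG1 cells (-0.38 and -0.27) and rose by 0.74 and 0.77 in Ad-GFP cells.

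Changes were also seen in probes that no gene of the comparison uses. Of 2859 kept probes without a single gene symbol, in the Ad-BRG1 cells 29 rose at least 2-fold after IFNγ and 1 fell as far. That share of rises is lower than among the 10333 tested genes, of which 189 (1.83%) rose as far.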

How the results depend on the processing

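All 189 genes raised 2-fold stayed called higher without background correction, with average normalization, with cyclic loess, without the detection filter, with array weights and with the replicate block. The count was 188 with the mean of a gene's probes, 184 with only the groups compared and 182 to 189 with 1 array left out, and at a detection p under 0.01 all 167 still tested were called. The 9 genes lost in some setting were APOL2, HMMR, LARP7, LRRCC1, MANEA, PHF3, RB1CC1, RNF217 and XAF1. APOL2 differed by -0.15 without Ad-BRG1 IFNγ replicate 2 and -0.07 without replicate 3, and its difference of responses by -0.16 and -0.08, where a different probe was the brightest. With 1 array left out these ranged from -0.15 to 2.52 and from -0.16 to 1.14. The 8 fallers stayed called lower in every setting.

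Counts moved by over 1.5 times as follows. Genes 2-fold or more higher numbered 85 without background correction and 87 with average normalization, and genes 2-fold or more lower 1 in each and 13 with array weights. Calls lower numbered 1268 with only the groups compared. With 1 array left out, calls higher ranged from 853 to 1570, calls lower from 1240 to 2107, genes 2-fold higher from 160 to 239 and genes 2-fold lower from 7 to 18 (18 without Ad-BRG1 untreated replicate 3 or IFNγ replicate 1). Larger and smaller responses numbered 761 and 722 without background correction, 857 and 875 with array weights, and 214 to 834 and 137 to 772 with 1 array left out, and larger ones 817 with average normalization. With average normalization 52.9% of calls were higher.

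Differences of responses turned sign for IFITM3 (0.78 without background correction and 0.82 with average normalization, both called), CDKN1A (0.022) and SOCS2 (0.079), the last 2 with average normalization. Without background correction folds of dim genes shrink by construction. The causes of the other shifts were not tested. Deviations of each gene from its group mean were correlated between IFNγ-treated and untreated arrays. Same-numbered Ad-BRG1 arrays gave 0.18, 0.05 and 0.44 and different-numbered ones -0.46 to 0.34. Same-numbered Ad-GFP arrays gave -0.06, 0.15 and -0.01 and different-numbered ones -0.11 to 0.13. Numbers were not taken as pairs, though all same-numbered Ad-BRG1 values were positive. With the replicate block 1494 genes rose, 2090 fell, and 727 responses were larger and 611 smaller.

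Of 6792 values of the IFNγ response of 325 named genes under the alternatives, 6381 kept direction and side of the threshold, 404 lost and 5 gained the call, and 2 reversed. A slide block was not run.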
